A study of Homo sapiens with 12 samples.

Results

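The 9 genes JAK1, JAK2, STAT3, SOCS1, SOCS2, SOCS3, PIM1, PIM2 and PIM3 encode 2 receptor-bound kinases, the transcription factor they activate, 3 of its feedback inhibitors and the 3 kinases of the PIM family. They were taken by name, and the group was chosen with earlier results of these data known. Every probe that the platform annotation assigns to 1 of them alone was used, which gave 26 probe sets on AFFX and 11 probes on ABI. They are 9 of the 19777 genes measured on AFFX, of the 17192 on ABI and of the 16186 on both. AFFX is the Affymetrix U133 Plus 2.0 array, on which several probe sets of short oligonucleotides can stand for a gene, and where sets named _s_at or _x_at may hold probes shared with other transcripts. ABI is the Applied Biosystems Human Genome Survey array, which mostly has 1 long oligonucleotide per gene and is read by chemiluminescence. The cells were A2780, an established human ovarian carcinoma cell line, and only cells still attached to the dish were harvested. The treated group had received 3 µM of a cell cycle inhibitor, which the labels do not name, for 6 hours. The control group was left untreated. Each platform had 3 treated and 3 control arrays, 12 arrays in all. All arrays of a condition carried aliquots of 1 RNA pool, made by joining the biological replicates, so that every p-value below measures technical spread between 2 pools and not the spread between cultures.

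Cytokine receptors without kinase activity of their own are served by JAK kinases, which phosphorylate the receptor and then STAT proteins. Phosphorylated STAT3 pairs up, enters the nucleus and switches on genes, among them those of its own inhibitors, the SOCS proteins. SOCS1 and SOCS3 bind and block JAKs, while SOCS2 is best known for limiting growth hormone signalling, and all of them can pass bound proteins to a ubiquitin ligase through their SOCS box. PIM kinases are serine and threonine kinases that are active as soon as they are made, so their abundance sets their activity, and their genes are known targets of STAT signalling. Their mRNAs and those of several SOCS genes are known to turn over quickly.

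A probe was called higher or lower on 2 conditions, an adjusted p below 0.05 (limma, Benjamini-Hochberg over all probes of the platform) and a change of 1.5-fold or more. A gene took the call of its probe with the smallest p in a t-test, the choice made in the study's methods, and equal variances were assumed for it here. The replicate SD over all probes had a median of 0.113 in treated and 0.0976 in control arrays on AFFX, and of 0.298 in treated and 0.261 in control arrays on ABI. Probes of leukocyte genes, which an ovarian carcinoma line should not use, gave a level for dim probes, with a median log2 signal in control arrays of 4.39 on AFFX and -1.01 on ABI. None of the 10 leukocyte genes measured on each platform was called (limma, with 5 higher on AFFX, and 1 higher and 2 lower on ABI, at an unadjusted p under 0.05), while their summed linear signal was 429 to 458 in treated and 349 to 362 in control arrays on AFFX, and 3.99 to 5.35 in treated and 3.83 to 5.81 in control arrays on ABI. Of the epithelial and ovarian markers, EPCAM, CDH1, WT1 and MUC16 lay below the dim level in AFFX control arrays and CDH1 in ABI control arrays. Markers that were called were each called on 1 platform only. KRT18 was lower (-0.87) and MUC16 higher (1.16) on ABI, with 0.18 and 0.22 on AFFX. Of fibroblast genes, COL1A2 (-1.74) and COL3A1 (-1.79) were lower on AFFX, with 0.26 and 0.21 on ABI. PDGFRA (-1.22) was lower on ABI, with 0.53 on AFFX, and COL1A1 (1.13) was higher on ABI, with 0.49 on AFFX. Their part in the results was not tested. Bringing ribosomal protein genes to the same level in every array moved the median change of all probes by -0.30 on AFFX and -0.62 on ABI, and bringing the AFFX hybridisation controls level moved it by -0.42. Small rises are therefore given with the scalings that turn them.

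The genes of the group that passed both conditions mostly fell. On AFFX, 6 of the 26 probe sets were lower in treated cells and 2 were higher, against 8.95% and 1.75% of all probe sets. The fold limit matters for this balance. Without it, 8 AFFX probe sets lay below and 8 above control at an unadjusted p under 0.05 (limma). Taken by gene, SOCS2, SOCS3, PIM1 and PIM3 were lower, that is 4 of 9 against 14.2% of all genes, and STAT3 was higher, 1 of 9 against 2.49%. On ABI, 4 of the 11 probes were lower, against 10.1% of all probes, and none was higher, against 7.71%, nor was any higher at an unadjusted p under 0.05 or in the methods' t-test. The genes they stand for were JAK2, SOCS2, PIM1 and PIM3, 4 of 9 against 14.8% of all genes, with 6.31% of all genes higher. SOCS2, PIM1 and PIM3 were lower on both platforms, 3 of 9 against 10.5% of the shared genes. The median change of the 26 AFFX probe sets was 0.11, close to the 0.12 of all probe sets, whereas that of the 11 ABI probes was -0.42 against 0.16 for all probes. In RNA from whole cultures, a fall in every cell and a larger fall in some of the cells cannot be told apart.

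**Figure D1:**
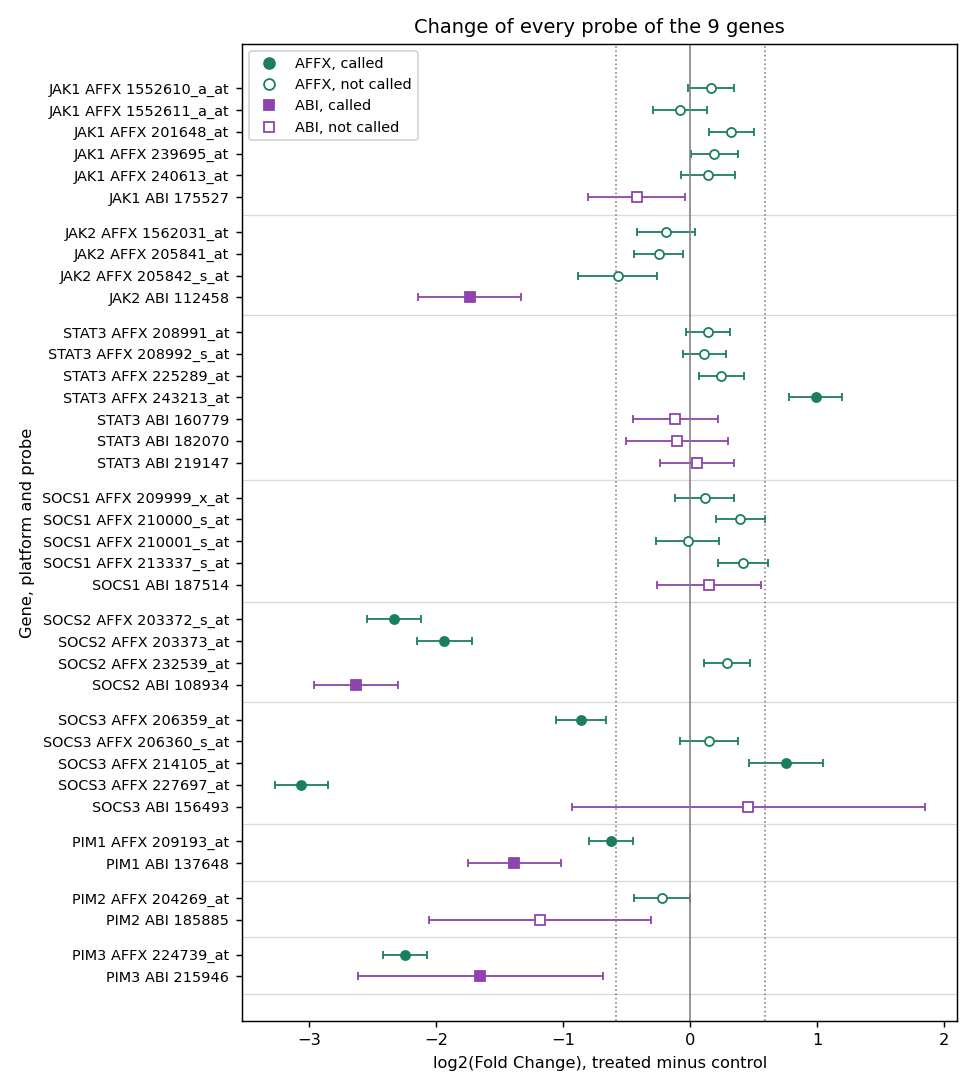
Change of every probe of the 9 genes as log2(Fold Change), treated minus control, with 95% confidence intervals from limma. Circles are AFFX probe sets and squares ABI probes. Filled symbols passed both the adjusted p and the 1.5-fold limit, which the dotted lines mark. SOCS2, PIM1 and PIM3 have filled symbols left of the lower limit on both platforms, and SOCS3 has filled AFFX symbols on both sides of 0.

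The promoters of PIM1 and PIM3 are shown because both genes were lower on both platforms and both are known targets of STAT signalling. RefSeq windows of the GRCh38.p14 build run from 250 bases before to 50 bases after a gene's start, and 8 of the 9 genes have entries, 14 windows in all. SOCS2 has no entry. CISH, the founding member of the SOCS family, is set beside them as the window with most copies of the STAT motif among those looked at. Capitals mark 2 motifs. These are TTCNNNGAA, the core that STAT dimers bind, which reads the same on both strands, and GGGCGG, the GC box bound by SP1, on either strand. No match of one overlaps a match of the other in these windows.

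PIM1, chr6:37169902-37170201, plus strand: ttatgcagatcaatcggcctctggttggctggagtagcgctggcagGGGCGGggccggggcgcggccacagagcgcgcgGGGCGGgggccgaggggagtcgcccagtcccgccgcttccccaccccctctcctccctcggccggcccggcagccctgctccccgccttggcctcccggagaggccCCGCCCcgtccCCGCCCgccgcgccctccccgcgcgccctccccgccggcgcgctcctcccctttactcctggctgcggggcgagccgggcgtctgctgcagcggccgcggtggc

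PIM3, chr22:49960522-49960821, plus strand: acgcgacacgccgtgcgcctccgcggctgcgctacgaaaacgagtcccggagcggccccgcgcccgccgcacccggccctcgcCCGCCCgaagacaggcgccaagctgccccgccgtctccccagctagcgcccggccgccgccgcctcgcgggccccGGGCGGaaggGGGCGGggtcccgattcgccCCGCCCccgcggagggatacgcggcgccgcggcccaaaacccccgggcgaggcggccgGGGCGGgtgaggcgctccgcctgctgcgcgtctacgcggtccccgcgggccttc

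CISH, chr3:50611725-50612024, minus strand: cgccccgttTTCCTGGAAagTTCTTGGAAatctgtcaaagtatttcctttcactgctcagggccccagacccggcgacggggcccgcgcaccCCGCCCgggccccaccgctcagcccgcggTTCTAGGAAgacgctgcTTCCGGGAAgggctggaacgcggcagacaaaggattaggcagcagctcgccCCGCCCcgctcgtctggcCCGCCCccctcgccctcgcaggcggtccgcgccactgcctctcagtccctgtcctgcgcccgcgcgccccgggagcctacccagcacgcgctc

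The PIM1 window is 79.7% G and C with 4 GC boxes, and the PIM3 window is 81.3% with 5, where the median of all 35116 windows is 58.7%. GC boxes occur in 7 of the 14 windows of the members and in 44.95% of all windows. TTCNNNGAA occurs in 7.66% of all windows and in 0 of the 14, which says only that these letters are not within these stretches. The CISH window holds 4 matches, a number that 7 of the 35116 windows reach.

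JAK1, on chromosome 1, is the kinase shared by the interferon receptors and those that signal through gp130. Its 5 AFFX probe sets had changes between -0.080 and 0.32. The largest was that of 201648_at, with log2 signals of 8.37, 8.46 and 8.39 in treated arrays and 8.13, 8.08 and 8.03 in control arrays. The groups did not overlap and the change was 0.32 ± 0.080 (SE), with an adjusted p of 0.00948, but at 1.25-fold it stayed under the fold limit, and with the hybridisation controls level it was -0.093. The ABI probe 175527 had 0.83, 0.52 and 0.62 in treated arrays and 1.06, 0.93 and 1.24 in control arrays. That is a change of -0.42 (95% interval -0.80 to -0.038) with an adjusted p of 0.115, the opposite sign to the AFFX probe set. With ribosomal protein genes level the AFFX change was 0.023 and the ABI probe was called lower, at -1.04.

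JAK2, on chromosome 9, serves the receptors for erythropoietin, growth hormone and prolactin as well as the interferon-gamma receptor. The single ABI probe, 112458, had 0.029, 0.28 and 0.51 in treated arrays and 1.94, 2.00 and 2.08 in control arrays, so that the highest treated array lay far below the lowest control array. It was 3.33-fold lower, a change of -1.74 ± 0.16 (SE, adjusted p = 0.00220). AFFX probe set 205842_s_at had 4.99, 4.80 and 5.46 in treated arrays and 5.61, 5.67 and 5.69 in control arrays. These do not overlap either, and the change of -0.57 ± 0.14 passed the adjusted p at 0.00913 but at 1.49-fold fell just short of the fold limit. The missing call hung on single arrays. Without the treated array at 5.46 the change was -0.76 and the probe set was called, as it also was without control replicate 1, at -0.60. The other 2 probe sets, 1562031_at and 205841_at, lay below the dim level in both groups, with changes of -0.19 and -0.25. With all arrays none of the AFFX probe sets of JAK2 was called, and neither was the gene, for which 205841_at stands.

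STAT3, on chromosome 17, is the transcription factor that carries the signal of gp130 receptors. Of its 7 probes on the 2 platforms, 6 moved by less than the fold limit in either direction. AFFX probe set 208991_at had 9.27, 9.31 and 9.26 in treated arrays and 9.16, 9.11 and 9.16 in control arrays, a change of 0.14 (adjusted p = 0.180), and 208992_s_at and 225289_at changed by 0.11 and 0.24, and all 3 turned negative (-0.056 to -0.31) with ribosomal protein genes or hybridisation controls level. On ABI, 219147 had 3.39, 3.31 and 3.30 in treated arrays and 3.37, 3.24 and 3.23 in control arrays, a change of 0.054 (95% interval -0.24 to 0.35), and 160779 and 182070 changed by -0.12 and -0.10. The 95% intervals of all 6 lay within the fold limit on both sides, but with ribosomal protein genes level 160779 and 182070 were called lower, at -0.74 and -0.73. The exception was 243213_at, with 5.00, 5.28 and 5.17 in treated arrays and 4.13, 4.24 and 4.11 in control arrays. It was 1.98-fold higher (adjusted p = 1.44e-05), and its control arrays lay below the dim level. The call of STAT3 as higher rests on this probe set alone, and its change fell to 0.57, under the fold limit, with the hybridisation controls level.

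**Figure D2:**
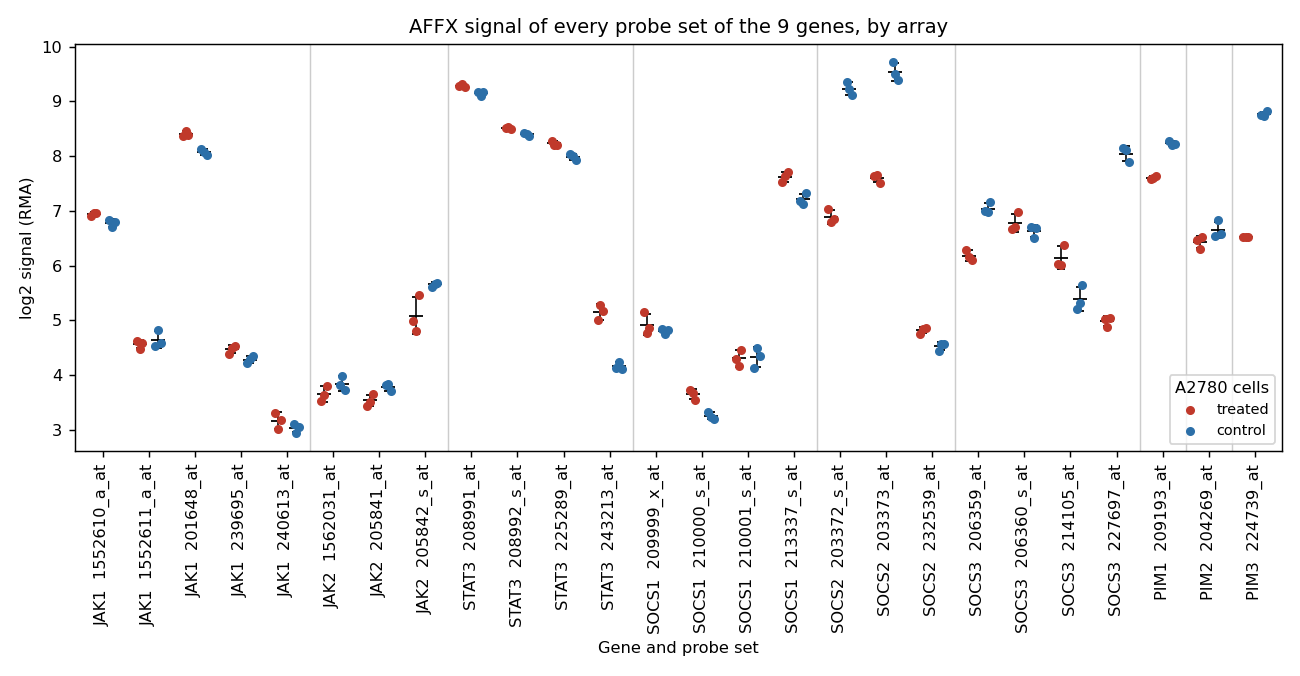
Log2 signal of the 26 AFFX probe sets of the 9 genes on every array, treated arrays left and control arrays right of each tick, with the mean and SD of 3 arrays as black bars. In SOCS3, 227697_at lies between 4.88 and 5.05 in treated arrays and between 7.89 and 8.14 in control arrays, while 214105_at is higher in treated arrays.

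SOCS2, on chromosome 12, was the member with the largest fall over both platforms. AFFX probe set 203372_s_at had 7.03, 6.79 and 6.86 in treated arrays and 9.35, 9.22 and 9.11 in control arrays. This is 5.04-fold lower, a change of -2.33 ± 0.098 (SE, adjusted p = 3.71e-08). Probe set 203373_at had 7.63, 7.65 and 7.52 in treated arrays and 9.71, 9.50 and 9.39 in control arrays, which is 3.83-fold lower. The ABI probe 108934 had 1.85, 1.63 and 1.65 in treated arrays and 4.47, 4.26 and 4.30 in control arrays, which is 6.19-fold lower with a change of -2.63 ± 0.13 (adjusted p = 0.000589). In all 3 probes the gap between the groups was many times the spread within them. The third AFFX probe set, 232539_at, did not share the fall. It had 4.76, 4.84 and 4.86 in treated arrays and 4.45, 4.57 and 4.57 in control arrays, a change of 0.29 that was under the fold limit and turned to -0.011 with ribosomal protein genes level and to -0.13 with the hybridisation controls level.

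SOCS3, on chromosome 17, is the main brake on gp130 signalling, and its probes went different ways. Probe set 227697_at had 5.03, 4.88 and 5.05 in treated arrays and 8.14, 8.10 and 7.89 in control arrays, 8.35-fold lower with a change of -3.06 ± 0.095 (SE, adjusted p = 6.40e-09), the largest change of any probe of the 9 genes. Probe set 206359_at had 6.29, 6.15 and 6.10 in treated arrays and 6.99, 6.98 and 7.15 in control arrays, 1.82-fold lower (adjusted p = 3.02e-05). Against these, 214105_at had 6.04, 6.00 and 6.38 in treated arrays and 5.21, 5.32 and 5.64 in control arrays. This is 1.68-fold higher, a change of 0.75 ± 0.13 (adjusted p = 0.00133), and the call was lost at 0.45 with ribosomal protein genes level, at 0.33 with the hybridisation controls level and in the methods' t-test (adjusted p = 0.0541). The groups overlapped in 206360_s_at, with 6.66, 6.71 and 6.97 in treated arrays and 6.70, 6.51 and 6.69 in control arrays. It was the brightest SOCS3 probe set by mean signal and showed no fall, with a change of 0.15 (limma, adjusted p = 0.272). Of the 2727 AFFX genes with at least 4 probe sets, 2.35% were called lower by one set and higher by another, and among JAK1, STAT3, SOCS1 and SOCS3, which have that many, only SOCS3 was.

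On ABI the single SOCS3 probe, 156493, had -0.42, 1.68 and -0.014 in treated arrays and -0.18, -0.14 and 0.20 in control arrays. Treated replicate 2 stood apart from all 5 other arrays. The change was 0.46 with an interval of -0.93 to 1.85, and without that array it was -0.18 (limma, adjusted p = 0.645). No change was detectable at this spread. The interval does not reach the fall of 227697_at, but it includes that of 206359_at (-0.86). The control mean of this ABI probe was -0.040, with a dim level of -1.01, and how large a fall it could show was not tested.

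SOCS1, on chromosome 16, is the inhibitor best known from interferon signalling. It was called on neither platform. Probe set 213337_s_at had 7.53, 7.64 and 7.71 in treated arrays and 7.17, 7.13 and 7.32 in control arrays, a change of 0.42 (adjusted p = 0.00445) that stayed at 1.34-fold and shrank to 0.12 with ribosomal protein genes level. Probe sets 210000_s_at and 210001_s_at lay below the dim level in both groups, with changes of 0.40 and -0.020, and the first turned to -0.021 with the hybridisation controls level. The ABI probe 187514 had 1.95, 2.25 and 1.77 in treated arrays and 1.92, 1.82 and 1.80 in control arrays. The groups overlapped, with a change of 0.15 (95% interval -0.26 to 0.55).

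**Figure D3:**
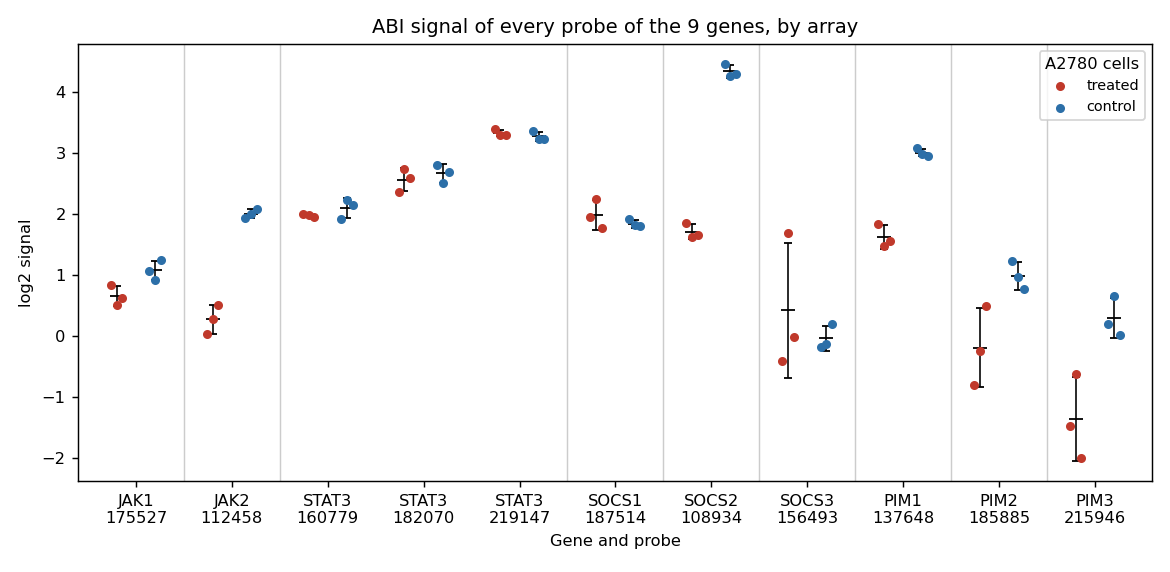
Log2 signal of the 11 ABI probes of the 9 genes on every array, treated arrays left and control arrays right of each tick, with the mean and SD of 3 arrays as black bars. SOCS2, PIM1 and JAK2 show a clear gap between the groups, the treated arrays of PIM2 and PIM3 scatter widely, and 1 treated array of SOCS3 lies at 1.68.

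PIM1, on chromosome 6, is the founding member of its kinase family and has 1 probe on each platform. On AFFX, 209193_at had 7.58, 7.59 and 7.64 in treated arrays and 8.28, 8.20 and 8.21 in control arrays. It was lower by 1.54-fold, just past the fold limit, with a change of -0.63 ± 0.078 (SE, adjusted p = 0.000118). The ABI probe 137648 had 1.84, 1.47 and 1.57 in treated arrays and 3.08, 2.99 and 2.96 in control arrays, 2.61-fold lower with a change of -1.39 ± 0.15 (adjusted p = 0.00329). Neither platform had overlapping groups, and PIM1 stayed called on both whichever array was left out.

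PIM3, on chromosome 22, fell further on AFFX. Its probe set 224739_at had 6.52, 6.52 and 6.52 in treated arrays and 8.74, 8.74 and 8.82 in control arrays. The fall was 4.75-fold, a change of -2.25 ± 0.078 (SE, adjusted p = 1.09e-08), with a spread within the groups that was small beside it. The ABI probe 215946 had -1.47, -0.62 and -2.00 in treated arrays and 0.20, 0.65 and 0.014 in control arrays, and its treated mean lay below the dim level. It was 3.15-fold lower, a change of -1.65 ± 0.39 (adjusted p = 0.0364). This call was lost without treated replicate 1 (-1.60) or 3 (-1.34) or without control replicate 1 (-1.70), 2 (-1.47) or 3 (-1.79), and kept only without treated replicate 2 (-2.03, adjusted p = 0.0212).

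PIM2, on the X chromosome, was called on neither platform. On AFFX, 204269_at had 6.46, 6.30 and 6.52 in treated arrays and 6.55, 6.83 and 6.58 in control arrays. The change was -0.22 with an interval of -0.45 to 0.0012 (adjusted p = 0.104). The ABI probe 185885 had -0.81, -0.25 and 0.49 in treated arrays and 1.23, 0.96 and 0.77 in control arrays. All treated arrays lay below all control arrays, and the change of -1.18 (95% interval -2.05 to -0.30) was 2.27-fold, but its adjusted p was 0.0685. It passed without treated replicate 3, at -1.52 (adjusted p = 0.0318).

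Whether the 2 platforms gave different changes was tested as an interaction over all 12 arrays and the 16186 shared genes. The fit took 1 residual variance per gene for both platforms, although replicate arrays spread more on ABI, so its p-values are approximate. The change differed in 5 of the 9 genes, against 15.1% of all genes. SOCS3 had the largest difference, with ABI above AFFX by 3.52 ± 0.60 (SE, adjusted p = 0.00368). In JAK2 the ABI change was below that on AFFX by a difference of -1.49 (adjusted p = 0.000411), in STAT3 by -1.11 (0.00107), in PIM1 by -0.76 (0.00596) and in JAK1 by -0.74 (0.00936). The measured change of PIM1 was therefore a fall on both platforms, but of unequal size. Both platforms carried aliquots of the same RNA pools, so these are differences between measurements and not between cells. The study described a slightly higher dynamic range of fold changes on ABI, and its part here was not tested. For SOCS2 the difference was -0.30 (95% interval -0.64 to 0.044, adjusted p = 0.239), and for PIM3 it was 0.59 (-0.32 to 1.51, adjusted p = 0.387). These comparisons use 1 probe per platform. With the brightest probe of each gene in place of the one with the lowest p, the differences of SOCS3 and STAT3 were 0.31 (adjusted p = 0.807) and -0.084 (adjusted p = 0.685), and that of SOCS2 was -0.69 (adjusted p = 0.0175).

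Of the 16185 other shared genes, those with the pair of changes nearest to that of SOCS2 were IRF2BPL (-2.32 on AFFX and -2.63 on ABI), TAF5 (-2.31 and -2.64) and PUM2 (-2.25 and -2.67), by Euclidean distance over the 2 log2 changes. IRF2BPL encodes a relative of the proteins that bind the transcription factor IRF2, TAF5 a subunit of the general transcription factor TFIID and PUM2 a protein that binds and represses mRNAs. The likeness rests on 2 values a gene. SOCS2 lay at percentile 1.24 of the shared genes on AFFX and 1.98 on ABI, and SOCS3 at 0.327 on AFFX and 73.9 on ABI, counted from the largest fall. STAT3 lay at percentile 99.8 on AFFX through 243213_at and at 40.1 on ABI.

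**Figure D4:**
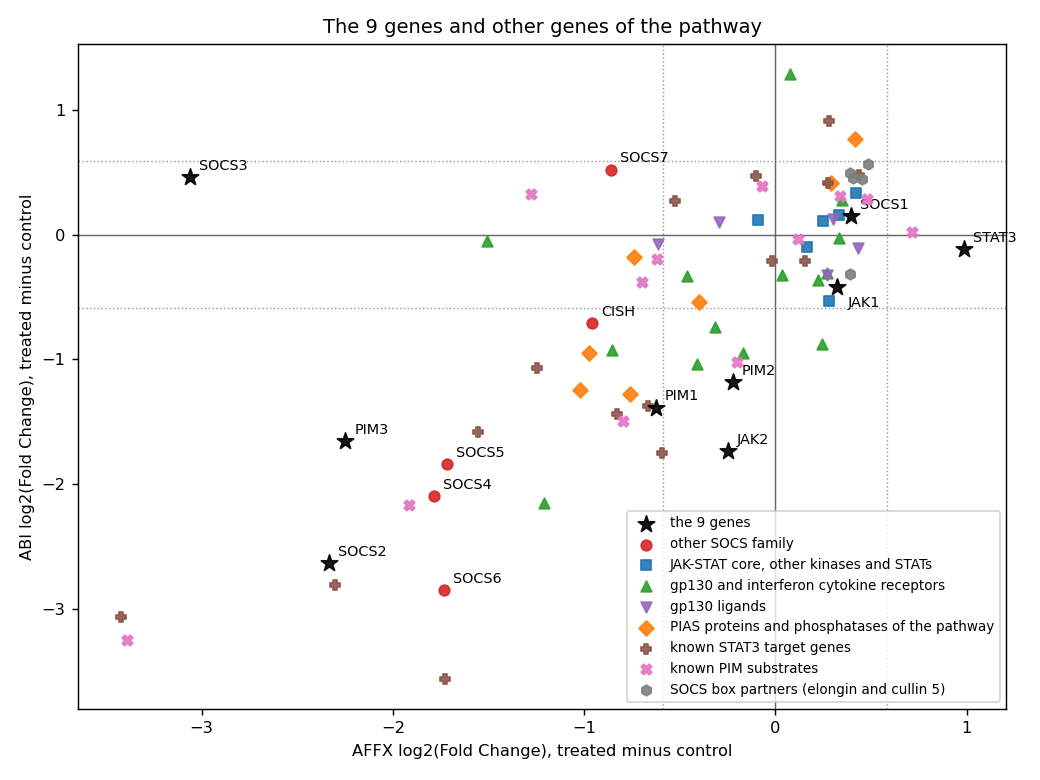
Change of each gene as log2(Fold Change), treated minus control, on AFFX (horizontal) and ABI (vertical), for the 9 genes (stars) and 8 lists of other genes of the pathway, each through its probe with the lowest p. Dotted lines mark 1.5-fold. SOCS2, SOCS4, SOCS5, SOCS6 and PIM3 lie at the lower left, among genes of other lists. Examples are MYC (-2.30 on AFFX and -2.80 on ABI) and FOXO3 (-1.92 and -2.17). SOCS3 stands alone at the left, at -3.06 on AFFX and 0.46 on ABI.

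The rest of the pathway was followed in 8 lists of 78 genes, of which 73 were measured on AFFX, 70 on ABI and 69 on both. Like the 9 genes, these lists were chosen with earlier results of these data known. Counts above the shares of all genes are therefore not independent evidence. By limma 27 were lower and 1 was higher on AFFX, where 14.2% of all genes were lower and 2.49% higher, and 19 were lower and none was higher on ABI, where 14.8% of all genes were lower and 6.31% higher. Both conditions matter here, since at an unadjusted p under 0.05 and with no fold limit 33 were below and 26 above control on AFFX, and 26 below and 9 above on ABI. Those lower on both platforms were 16, against 10.5% of the shared genes. Most of the other SOCS family genes were lower. All 5 of them (CISH, SOCS4, SOCS5, SOCS6 and SOCS7) were lower on AFFX, with a median change of -1.72, and SOCS4, SOCS5 and SOCS6 were also lower on ABI, where the median was -1.84. The medians over all genes were 0.16 on AFFX and 0.094 on ABI. SOCS6 was 3.32-fold lower on AFFX, in 3 of 3 probe sets, with a treated mean of 3.68 that lay below the dim level, and 7.20-fold lower on ABI. SOCS5, which limits growth factor receptors, was 3.29-fold lower on AFFX, in 2 of 3 probe sets, and 3.57-fold on ABI. SOCS4 was 3.45-fold lower on AFFX, in 1 of 2 probe sets, and 4.27-fold on ABI, where its treated mean of -1.73 lay below the dim level. CISH and SOCS7 were called through 1 of 3 probe sets each, at -0.96 and -0.86, and their ABI changes were -0.71 (adjusted p = 0.241) and 0.52 (adjusted p = 0.219). With the brightest probe set per gene, 3 of the 5 were lower on AFFX.

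The proteins that the SOCS box binds were not among the genes that fell. None of ELOB, ELOC, CUL5, RNF7 and RBX1, which form the ubiquitin ligase, reached the fold limit on either platform, although 5 of 5 on AFFX and 3 of 5 on ABI had an adjusted p under 0.05 upward. Their median changes were 0.41 on AFFX and 0.45 on ABI, and turned to -0.17 on ABI with ribosomal protein genes level and to -0.0096 on AFFX with hybridisation controls level. Of the other JAK and STAT genes, JAK3, TYK2, STAT4, STAT5A, STAT5B and STAT6, 0 of 6 were called on either platform by limma, with 4 on AFFX and 0 on ABI at an unadjusted p under 0.05. Ligands of gp130 receptors had 1 call in 6, LIF on AFFX at -0.61, with -0.079 on ABI. Among the receptors, IFNGR1, the ligand-binding chain for interferon gamma, was 2.31-fold lower on AFFX, in 2 of 3 probe sets, and 4.43-fold on ABI. EPOR, the erythropoietin receptor, was 1.81-fold lower on AFFX, in 1 of 5 probe sets, and 1.90-fold on ABI. In all, 3 of 16 receptors were lower on AFFX, a share near the 14.2% of all genes, and 4 of 14 on ABI, against 14.8%. With no fold limit, 6 receptors lay below and 7 above control on AFFX at an unadjusted p under 0.05. IL6ST, which encodes gp130, changed by 0.33 (1.26-fold) on AFFX and -0.028 on ABI. This AFFX rise was smaller than the shift of -0.42 in the AFFX median with hybridisation controls level.

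The nuclear and phosphatase inhibitors of the pathway had 4 of 8 genes lower on AFFX, against 14.2% of all genes, and 3 of 7 on ABI, against 14.8%. PIAS1 was 2.03-fold lower on AFFX, in 3 of 3 probe sets, and 2.38-fold on ABI. PIAS4 was lower by 1.96-fold on AFFX, in 1 of 2 probe sets, and by 1.93-fold on ABI. PTPN2, a phosphatase that removes phosphate from JAK1 and STATs, was 1.69-fold lower in only 1 of 7 AFFX probe sets, whose changes ran between -0.76 and 0.30, and 2.42-fold lower on ABI. Of genes known as STAT3 targets, 8 of 15 were lower on AFFX, against 14.2% of all genes, and 5 of 16 on ABI, against 14.8%. No target was called higher, while 2 on AFFX and 4 on ABI had an unadjusted p under 0.05 upward. CEBPB, a transcription factor of the acute phase response, was 10.7-fold lower on AFFX and 8.37-fold on ABI, where its treated mean of -2.36 lay below the dim level. Its relative CEBPD was 2.94-fold lower on AFFX, in 1 of 2 probe sets, and 2.99-fold on ABI. MYC, the growth regulator, was 4.93-fold lower on AFFX and 6.99-fold on ABI. MCL1, which protects from apoptosis, was 3.32-fold lower on AFFX, where 4 of 6 probe sets were lower and the changes ran between -3.79 and -0.12, and 11.8-fold on ABI. IRF1 was lower on both platforms too, at -0.59 on AFFX, in 1 of 2 probe sets, and -1.75 on ABI. Its treated mean of -1.68 on ABI lay below the dim level. JUNB (-0.83), BCL6 (-1.25) and VEGFA (-0.67) were lower on AFFX, with -1.44, -1.07 and -1.37 on ABI, not called there. Targets called on neither platform included CCND1, with -0.100 on AFFX and 0.47 on ABI. TIMP1 (0.44 on AFFX and 0.47 on ABI) and BIRC5 (0.27 and 0.41) lay above control on both platforms, under the fold limit. These ABI rises were smaller than the shift of -0.62 in the ABI median with ribosomal protein genes level.

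Genes whose proteins are known substrates of PIM kinases were split. CDKN1B, which encodes the CDK inhibitor p27, was 10.5-fold lower on AFFX and 9.51-fold on ABI. FOXO3, a transcription factor that PIM1 phosphorylates, was 3.77-fold lower on AFFX, in 2 of 4 probe sets, and 4.49-fold on ABI, and CDKN1A, which encodes the CDK inhibitor p21, was 1.74-fold and 2.82-fold lower. In total 6 of 12 were lower on AFFX, against 14.2% of all genes, and 4 of 12 on ABI, against 14.8%. EIF4B, a translation factor, was 1.64-fold higher on AFFX, in 1 of 3 probe sets, with a change of 0.017 on ABI and no call on AFFX with ribosomal protein genes level.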

How the data were processed

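Signals were measured on 12 arrays of A2780 cells, 3 treated and 3 control on each of 2 platforms. The AFFX values were deposited on the log2 scale, after RMA (version not given in the sources used here) and quantile normalization by the authors. On ABI the authors deposited linear intensity values after global median normalization, with no detection flags, on a scale not given in the sources used here. These were turned to log2. Both normalizations assume that most genes do not change. The number of arrays limits the precision.

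Without 62 AFFX control probe sets there were 54613 probe sets and 33096 ABI probes. Of these, 41091 and 21089 stand for 1 gene, 1801 and 563 for several, and 11721 and 11444 for none. Names came from the platform annotation, and only probes of 1 gene were used for genes. For each platform limma 3.58.1 (R 4.3.3) gave treated minus control without pairing, and p-values were adjusted by Benjamini-Hochberg over every probe that is no control. The probe with the lowest p was chosen on the same arrays as the test, so changes of genes with several probes lean towards larger values. The platform difference was an interaction in limma over the shared genes. Named list genes were at most 4 per list, those called alike on both platforms with the largest mean change, and the 3 shared genes nearest to the member with the largest mean fall. Others named in the text were chosen after their values were seen, as were the CISH window and the scalings given beside single probes. The members and lists were chosen with earlier results of these data known, and the lists were written by hand. The fits within a platform and the choice of probe were tested on simulated data drawn from the means and spread of the control arrays. The interaction was tested on simulated features with a fixed spread per platform, not drawn from the arrays. Promoter sequences are RefSeq, GRCh38.p14, matched by symbol.

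Alternatives were the replicate number as a block, other fold limits, the methods' t-test, a mean-variance trend with robust estimation, dim probes left out, the brightest probe per gene, 2 other scalings of AFFX (ribosomal protein genes or hybridisation controls level), 3 of ABI (ribosomal protein genes level, quantile normalization, an added offset at the 10th percentile) and each array left out in turn.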

Additional observations from a re-analysis of the deposited data

Results flagged for a closer look

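In 5 of the 9 genes the change on ABI differed from that on AFFX in the limma interaction. The differences, ABI minus AFFX on the log2 scale, were -0.74 for JAK1, -1.49 for JAK2, -1.11 for STAT3, 3.52 for SOCS3 and -0.76 for PIM1. In SOCS3 and STAT3 the AFFX value came from 1 of 4 probe sets, 227697_at and 243213_at, and in JAK2 from 205841_at, which lay below the dim level in both groups. The part that probe choice plays in these differences was not tested beyond the brightest-probe alternative given above.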

How the results depend on the processing

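The labels do not tie arrays of the same number together, and the correlations of their deviations were 0.075, 0.0040 and 0.33 on AFFX and 0.034, -0.0067 and 0.072 on ABI, above 0.1 for the arrays numbered 3 on AFFX and for no other pair, so the fits were left unpaired. With the replicate number as a block, 4 genes stayed lower and 1 higher on AFFX, 4 lower and 0 higher on ABI, 3 lower on both and 5 different between platforms. Over all ABI probes the block gave 1889 lower and 347 higher calls, against 3347 and 2553 without it. With ribosomal protein genes level, the calls were 8201 lower and 111 higher on AFFX, against 4888 and 958, and 8115 lower and 189 higher on ABI. With hybridisation controls level, AFFX had 10378 lower and 80 higher.

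The count of members lower on AFFX, on ABI and on both stayed within 1.5 times the value reported under every alternative run. On AFFX it was 3 with a 2-fold limit or the brightest probe, and 6 with hybridisation controls level. With the brightest probe SOCS3 stood through 206360_s_at (0.15) and was not lower. On ABI it was 3 in the methods' t-test and 6 with ribosomal protein genes level. Members higher on AFFX were 3 with no fold limit and 0 with a 2-fold limit, with ribosomal protein genes level, with the brightest probe and with hybridisation controls level. With ribosomal protein genes level STAT3 243213_at itself stayed higher (0.69, limma, adjusted p = 0.000742), but it no longer stood for the gene. With ribosomal protein genes level, members that differed between platforms were 8, list genes lower on ABI 41, higher on AFFX 0 and lower on both 27. With the brightest probe, list genes higher on AFFX were 0. Leaving out each array gave 4 to 5 members lower and always 1 higher on AFFX, 3 to 4 lower and always 0 higher on ABI, 2 to 4 lower on both and 5 to 6 different between platforms.

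Changes turned sign only in probes without a call. With ribosomal protein genes level these were JAK1 1552610_a_at (-0.14), 239695_at (-0.11) and 240613_at (-0.16), STAT3 208991_at (-0.16), 208992_s_at (-0.19) and 225289_at (-0.056), SOCS1 209999_x_at (-0.19), SOCS2 232539_at (-0.011) and SOCS3 206360_s_at (-0.15) on AFFX, and STAT3 219147 (-0.57), SOCS1 187514 (-0.48) and SOCS3 156493 (-0.17) on ABI. With hybridisation controls level they were JAK1 1552610_a_at (-0.25), 201648_at (-0.093), 239695_at (-0.23) and 240613_at (-0.28), STAT3 208991_at (-0.28), 208992_s_at (-0.31) and 225289_at (-0.17), SOCS1 209999_x_at (-0.30) and 210000_s_at (-0.021), SOCS2 232539_at (-0.13) and SOCS3 206360_s_at (-0.27). Quantile normalization of ABI turned STAT3 160779 (0.13) and 182070 (0.16). Leaving out each array in turn, the sign changed in JAK1 1552611_a_at (-0.14 to 0.010), SOCS1 210001_s_at (-0.12 to 0.062), STAT3 182070 (-0.19 to 0.000546) and ABI SOCS3 156493 (-0.18 to 0.87). JAK2 on AFFX was called with hybridisation controls level in all 3 probe sets (-0.61, -0.67 and -0.99) and with ribosomal protein genes level in 205842_s_at (-0.87), and PIM2 with hybridisation controls level (-0.64). PIM2 on ABI was called with the mean-variance trend (adjusted p = 0.0150), with ribosomal protein genes level (-1.80) and with the added offset (-0.98), and PIM3 was lost on ABI in the methods' t-test (adjusted p = 0.0778). The cause was not tested.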

Other observations

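SOCS2-AS1, the antisense RNA gene beside SOCS2, moved against it. On AFFX its probe set 1559315_s_at had 6.40, 6.35 and 6.35 in treated arrays and 5.76, 5.92 and 5.59 in control arrays, a change of 0.62 ± 0.096 (SE, limma, adjusted p = 0.000602) that was called higher. The ABI probe 155360 had 1.06, 1.29 and 0.94 in treated arrays and 0.42, 1.00 and 0.54 in control arrays. The groups overlapped there, with a change of 0.44 (adjusted p = 0.188). With ribosomal protein genes level the changes were 0.32 on AFFX and -0.18 on ABI, and with hybridisation controls level the AFFX change was 0.20.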
